A study of Homo sapiens with 9 samples.

Results

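The transcripts of 35 genes that act in homologous recombination, in the Fanconi anaemia pathway and in the kinase signalling around both were followed in MCF10A cells depleted of CHAF1B. The genes were chosen by name, with earlier results of these data known, so the comparisons with all genes below are descriptive. All 35 were found by their identifiers among the 26186 genes of the count table. All 35 also passed the filter on low counts, as did 16235 genes in all. MCF10A is a non-tumorigenic epithelial line from the human breast. CHAF1B encodes a subunit of CAF-1, a histone chaperone that builds nucleosomes behind the replication fork, and the series examined the transcriptome after CAF-1 suppression. The tested cells carried one of 2 short hairpin RNAs against CHAF1B in the pLKO.1 lentiviral vector, labelled shCHAF1B-#1 and shCHAF1B-#2 and written below as shCHAF1B-1 and shCHAF1B-2, and the control cells carried shGFP, a hairpin against green fluorescent protein. Each group had 3 libraries. All groups shared the medium with horse serum, insulin, cholera toxin, EGF and hydrocortisone, selection in puromycin at 2 µg/mL begun 24 hours after transduction, and RNA collection on day 3 after infection. Whether the 3 libraries of a group came from separate cultures is not stated in the labels, and the p-values therefore reflect only how these samples vary, possibly for technical reasons.

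Homologous recombination repairs a broken chromosome by copying the intact sister. Nucleases trim the break to single-stranded DNA, BRCA1 with BARD1 and PALB2 brings in BRCA2, a set of paralogs and the RAD54 proteins help the bare strand to pair with the sister, and the BLM helicase with its partners takes the joined molecules apart. The Fanconi pathway deals with crosslinks between the strands: a core complex attaches ubiquitin to FANCD2 and FANCI, which call in nucleases and the same recombination proteins. ATM and ATR are the kinases that sense breaks and bare single strands and pass the signal to CHEK2 and CHEK1, and many of these genes are transcribed mainly in cells that copy their DNA.

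Gene counts summed to between 24339914 and 31819468 per library. CHAF1B itself had 63, 121 and 87 counts with shCHAF1B-1 and 64, 99 and 73 with shCHAF1B-2, against 914, 1145 and 1050 counts in shGFP, and its log2 fold change was -3.50 (SE 0.13) and -3.55 (SE 0.14). All 11 markers of mammary basal epithelium passed the filter on low counts, 6 fell and 4 rose (median log2 fold change -0.16), and they summed to 10700.3 to 11940.01 CPM in the knockdowns and 11778 to 12709 CPM in shGFP, ranges that overlap (CPM, counts scaled to library size, here by the TMM method). The 24 B lymphocyte genes in the table summed to 599.5 CPM in shCHAF1B-1 replicate 3, against 3.90 to 5.30 CPM in the other 8 libraries, so the counts of recombination genes called lower are given below also without that library. T lymphocyte genes summed to 8.52 to 13.2 CPM in the knockdowns and 3.93 to 4.63 CPM in shGFP, most of it IL7R. The genes CD3D, CD3E and CD3G, which define T cells, were not found among the genes of the count table, so no value can be given for them. In the mean of both hairpins 4 of 5 myeloid genes tested rose, where 29.2% of all genes tested did. Of 10 myeloid genes listed, LYZ, AIF1 and TYROBP were not in the table. The other 7 summed to 145.4 to 171.9 CPM in the knockdowns and 80.8 to 87.0 CPM in shGFP. Among these, CD68, a defining marker that did not pass the filter, averaged 0.0665 CPM for shCHAF1B-1, 0.0925 CPM for shCHAF1B-2 and 0.0613 CPM in shGFP. These averages lie below the level of 3 counts, 0.0962 to 0.126 CPM, so CD68 cannot show a change. The 4 that rose are other genes of the list. Of 3 fibroblast genes tested 2 rose and 1 fell. The 7 in the table, of 9 listed, summed to 55.0 to 58.7 CPM in the knockdowns and 43.6 to 46.9 CPM in shGFP. The part of these transcripts in the changes described below was not tested.

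The recombination and Fanconi genes lay lower in CHAF1B-depleted cells as a group. All 35 log2 fold changes against shGFP were below 0 under each hairpin. With shCHAF1B-1, 31 of the 35 fell, where 25.2% of the 16235 genes tested fell, and with shCHAF1B-2 30 fell, where 24.6% did (edgeR quasi-likelihood test, Benjamini-Hochberg adjusted p under 0.05, as for all adjusted p-values here). In the mean of both hairpins 32 fell, beside 27.7% of all genes, and 29 fell under both hairpins, beside 20.8%. No member rose in the mean of both hairpins by edgeR, DESeq2 or limma-voom, nor at an unadjusted p under 0.05, where 29.2% of all genes rose by edgeR. For 32 members all 6 knockdown libraries lay below all 3 shGFP libraries, which held for 22.7% of genes. The 3 genes whose groups overlapped, ATM, FANCE and TOPBP1, were also the 3 that did not pass in the mean of both hairpins.

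The sizes were moderate. The median log2 fold change of the members was -0.50 with shCHAF1B-1, -0.42 with shCHAF1B-2 and -0.46 in the mean of both, where the medians over all genes were -0.00, -0.01 and -0.01. The median of -0.46 left 73.0% of the shGFP level. Members ranged from -0.96 for BLM to -0.02 for TOPBP1, and 12 fell by at least 1.5-fold, beside 7.74% of all genes: BLM, RAD54B, XRCC2, RAD54L, BRCA2, BRCA1, EXO1, FANCG, CHEK2, RAD51C, FANCD2 and ATRIP. Without shCHAF1B-1 replicate 3, 33 members fell with shCHAF1B-1, 29 with shCHAF1B-2 and 33 in the mean. Of all 16544 genes tested in that fit, 3745, 4017 and 4427 fell. These are levels in bulk RNA, in which fewer cells in a given phase or state and less RNA per cell cannot be told apart.

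**Figure D1:**
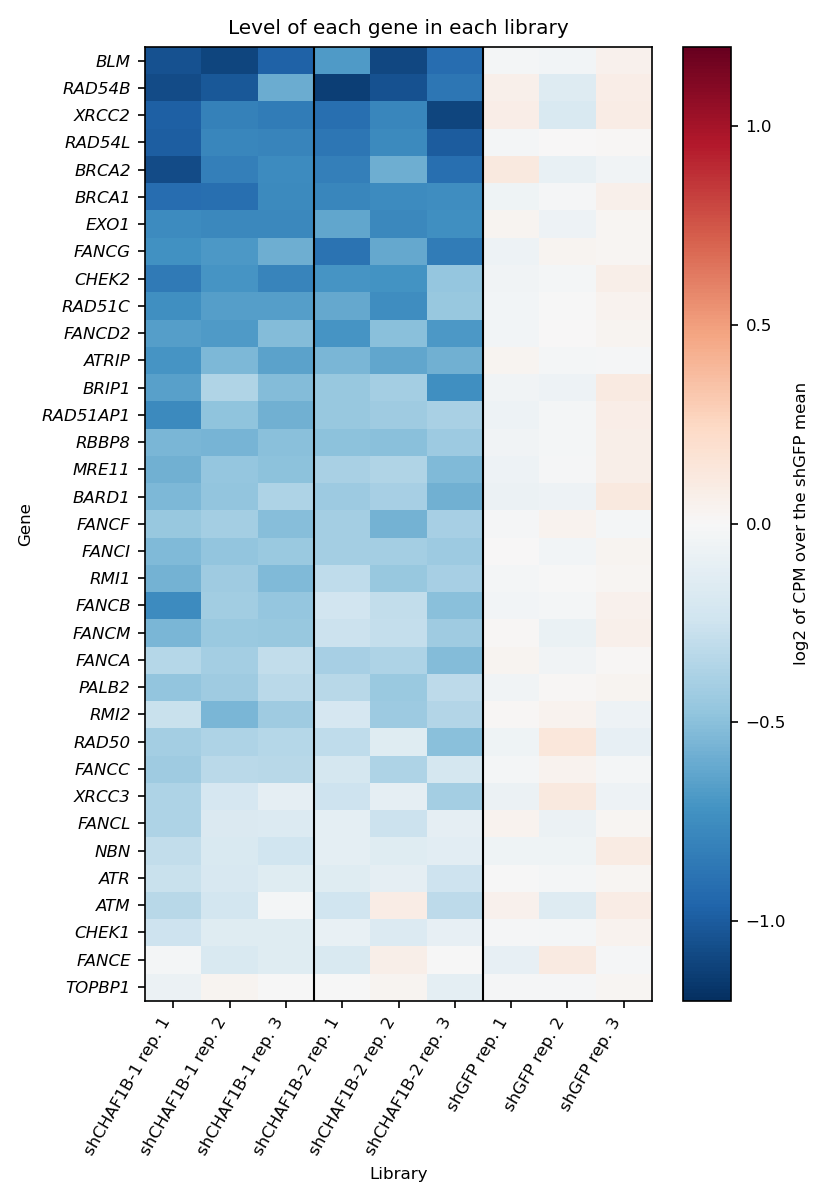
Level of the 35 genes (rows, ordered by mean change) in the 9 libraries (columns), as log2 of the CPM over the mean of the shGFP libraries. The 6 knockdown columns are blue for most rows and pale for CHEK1, FANCE and TOPBP1, and the 3 shGFP columns stay near 0.

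Because the members moved together, the sequence just before their starts was read from the RefSeq promoter windows of GRCh38.p14, which run from 250 bases before to 50 bases after the start and were available for 31 of the 35 genes (not for RAD54B, FANCI, NBN and RMI2). Where a gene had several windows, a match in any of them counted. The core of an E2F site, searched on both strands as TTCCCGC or as TTGGCGC or as TTCGCGC or as TTGCCGC, stood in the windows of 18 members (58.1%), compared with 15.3% of all 27305 genes with a window and 24.8% of the genes tested here. E2F proteins are the factors that switch on genes for DNA replication as cells enter S phase. The members that held such a core had a median log2 fold change of -0.49 (range -0.96 to -0.02) and the 13 others -0.43 (range -0.82 to -0.15), so the ranges overlapped almost wholly. CCAAT, the box bound by NF-Y, stood on either strand in 16 of 31 members (51.6%), 39.7% of all genes and 43.1% of the genes tested. It can share letters with an E2F core. The cell cycle homology region, found in promoters of mitotic genes, was searched as TTTGAA or TTCGAA. It stood in 3 members (9.68%), 19.5% of all genes and 15.6% of the genes tested. Of the S phase genes described below 27 of 34 held an E2F core, and of the G2 and mitosis genes 6 of 29. A match of letters is a description and shows no binding. The 250 bases before the start are shown for the 3 strongly lowered genes BLM, RAD54L and BRCA1 and for TOPBP1 and CHEK1, which changed little, to set the letters beside the changes. They are written 5′ to 3′ on the gene's strand, with E2F cores and CCAAT boxes in capitals.
BLM: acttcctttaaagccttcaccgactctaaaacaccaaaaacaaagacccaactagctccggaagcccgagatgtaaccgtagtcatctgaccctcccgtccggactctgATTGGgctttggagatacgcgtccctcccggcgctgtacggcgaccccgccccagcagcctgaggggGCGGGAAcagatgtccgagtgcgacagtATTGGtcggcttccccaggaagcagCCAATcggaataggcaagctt
RAD54L: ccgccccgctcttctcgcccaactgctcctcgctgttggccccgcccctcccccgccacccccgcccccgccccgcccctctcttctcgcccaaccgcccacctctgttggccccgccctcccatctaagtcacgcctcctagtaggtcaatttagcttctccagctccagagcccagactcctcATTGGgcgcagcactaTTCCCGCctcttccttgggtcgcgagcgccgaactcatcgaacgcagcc
BRCA1: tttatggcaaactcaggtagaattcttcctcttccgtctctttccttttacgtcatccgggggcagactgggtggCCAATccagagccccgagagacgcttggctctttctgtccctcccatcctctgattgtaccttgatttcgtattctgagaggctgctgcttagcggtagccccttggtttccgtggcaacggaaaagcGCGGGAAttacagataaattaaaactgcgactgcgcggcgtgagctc
TOPBP1: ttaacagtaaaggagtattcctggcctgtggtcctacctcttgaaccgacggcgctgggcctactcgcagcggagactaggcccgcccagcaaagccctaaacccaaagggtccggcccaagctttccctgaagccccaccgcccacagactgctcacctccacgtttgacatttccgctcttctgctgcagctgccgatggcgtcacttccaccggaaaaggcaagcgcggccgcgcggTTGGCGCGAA
CHEK1: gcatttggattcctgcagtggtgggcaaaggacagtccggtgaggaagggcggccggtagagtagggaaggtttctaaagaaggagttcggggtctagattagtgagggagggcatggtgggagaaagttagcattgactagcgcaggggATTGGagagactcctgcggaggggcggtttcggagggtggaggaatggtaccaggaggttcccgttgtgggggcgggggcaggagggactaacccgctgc

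The BLM window (chr15:90717096-90717345, plus strand) held 1 E2F core and 3 CCAAT boxes. RAD54L (chr1:46247438-46247687, plus strand) and BRCA1 (chr17:43125365-43125614, minus strand) held 1 of each. TOPBP1 (chr3:133661942-133662191, minus strand) held 2 overlapping E2F cores at its end, next to the start site, although its level hardly moved, and no CCAAT box. CHEK1 (chr11:125625974-125626223, plus strand) held 1 CCAAT box and no E2F core. RAD54L and BRCA1 had 2 windows each and CHEK1 had 3, and a window with an E2F core was printed where a gene had one. The cores printed for RAD54L and BRCA1 thus follow in part from that choice. BRCA2, which changed by -0.82 in the mean of both hairpins, held neither an E2F core nor a CCAAT box and is not shown.

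BRCA1, BRCA2 and their partners, which act at the trimmed break, all fell, with a median log2 fold change of -0.64 over the 4 genes. BRCA1, the ubiquitin ligase that opens the way to resection and recruits PALB2 (chromosome 17, 43044295 to 43170245, minus strand, GRCh38), measured 26.3, 26.4 and 29.1 CPM with shCHAF1B-1 and 28.8, 29.3 and 29.5 CPM with shCHAF1B-2, against 47.9, 49.0 and 51.7 CPM in shGFP. The knockdown libraries were nearly alike and far from the shGFP libraries. Its log2 fold change was -0.86 (SE 0.06, adjusted p = 2.92e-08) and -0.76 (SE 0.06, adjusted p = 1.09e-07). BRCA2, which acts on the trimmed single strand (chromosome 13, 32315474 to 32400266, plus strand), measured 14.0, 16.8 and 17.5 CPM with shCHAF1B-1 and 16.8, 19.8 and 15.8 CPM with shCHAF1B-2, against 32.2, 27.9 and 28.7 CPM in shGFP. It had the largest change of the group in the mean of both hairpins, -0.82 (SE 0.08, adjusted p = 1.55e-06), with no overlap between groups. PALB2, the bridge between BRCA1 and BRCA2, changed least here: 27.0, 28.0 and 30.0 CPM with shCHAF1B-1 and 29.9, 27.6 and 30.3 CPM with shCHAF1B-2, against 36.5, 37.8 and 38.4 CPM in shGFP. Its mean log2 fold change was -0.38 (SE 0.05, adjusted p = 2.02e-05), again without overlap. BARD1, the obligate partner of BRCA1, lay between, at -0.46 (SE 0.07).

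The strand exchange factors, paralogs and translocases that help the broken strand to pair with the sister, had the lowest median of the 7 role groups, -0.75 over 6 genes, all of which fell in the mean of both hairpins. RAD54B, a DNA translocase of the SWI/SNF family, was the scarcest member and the most lowered of this group: 1.38, 1.44 and 1.93 CPM with shCHAF1B-1 and 1.33, 1.41 and 1.60 CPM with shCHAF1B-2, against 3.04, 2.62 and 3.09 CPM in shGFP. That is 32 to 49 counts per knockdown library and 73 to 88 per shGFP library, and its mean log2 fold change of -0.94 has the widest error of the members (SE 0.15, adjusted p = 8.04e-05). XRCC2, a subunit of one of the paralog complexes, averaged 13.9 ± 0.870 CPM in shCHAF1B-1 cells and 13.4 ± 1.45 CPM in shCHAF1B-2 cells, against 25.5 ± 2.69 CPM in shGFP (SD, n = 3 each), a log2 fold change of -0.87 and -0.92. RAD54L, the main RAD54 translocase, averaged 10.5 ± 0.836 CPM in shCHAF1B-1 cells and 10.3 ± 0.847 CPM in shCHAF1B-2 cells, against 18.9 ± 0.288 CPM in shGFP (SD, n = 3 each), and changed by -0.85 and -0.87. RAD51C, the paralog found in both paralog complexes, fell by 0.68 and 0.60 on the log2 scale, and RAD51AP1, which helps to capture the partner duplex, fell by 0.60 and 0.42. XRCC3, the partner of RAD51C, changed least in the group. It measured 10.1, 11.3 and 12.1 CPM with shCHAF1B-1 and 10.9, 12.1 and 9.84 CPM with shCHAF1B-2, against 12.4, 14.2 and 12.5 CPM in shGFP. The groups nearly touched, and its log2 fold change was -0.22 (adjusted p = 0.0688) with shCHAF1B-1 and -0.25 (adjusted p = 0.0480) with shCHAF1B-2. The mean, -0.24 (adjusted p = 0.0274), lost its call without shCHAF1B-1 replicate 1 (adjusted p = 0.0537), without shCHAF1B-2 replicate 3 (adjusted p = 0.0532) or without shGFP replicate 2 (adjusted p = 0.154).

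In the Fanconi core complex, the ubiquitin ligase of the pathway and its partners, 7 of 8 genes fell and the median was -0.39. FANCG, an adaptor of the core, had the largest change: 17.4, 17.9 and 19.2 CPM with shCHAF1B-1 and 15.6, 18.8 and 16.1 CPM with shCHAF1B-2, against 27.7, 29.5 and 29.4 CPM in shGFP. Every knockdown library was well below every shGFP library, and the log2 fold change was -0.67 (SE 0.07) and -0.77 (SE 0.08). FANCE, which connects the core to FANCD2, passed under neither hairpin. Its libraries held 12.4, 11.1 and 11.4 CPM with shCHAF1B-1 and 11.1, 13.2 and 12.5 CPM with shCHAF1B-2, against 11.8, 13.5 and 12.5 CPM in shGFP. The groups overlapped, and the log2 fold change was -0.12 (95% interval -0.31 to 0.08, adjusted p = 0.295) and -0.04 (95% interval -0.23 to 0.15, adjusted p = 0.744). FANCA, the partner of FANCG, changed by -0.39, and FANCF, an adaptor of the core, by -0.46 in the mean of both hairpins. FANCM, the translocase that anchors the core to DNA, changed by -0.40, FANCB, which forms the catalytic module with FANCL, by -0.43, and FANCC, which pairs with FANCE and FANCF, by -0.31. FANCL, the catalytic subunit, passed with shCHAF1B-1 (-0.23, adjusted p = 0.0216) and did not with shCHAF1B-2 (-0.16, adjusted p = 0.102). Its mean of -0.20 (adjusted p = 0.0220) lost its call without shGFP replicate 1 (adjusted p = 0.0884) or replicate 3 (adjusted p = 0.0698).

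The substrates of the core complex fell too. FANCD2 (chromosome 3, 10026414 to 10101930, plus strand) measured 26.5, 26.2 and 29.3 CPM with shCHAF1B-1 and 25.8, 29.7 and 26.1 CPM with shCHAF1B-2, against 41.1, 42.1 and 43.0 CPM in shGFP. The log2 fold change was -0.62 and -0.63 (SE 0.07 for each), the largest of its group. FANCI, with which FANCD2 forms a clamp on DNA, was the more abundant transcript per length, and measured 82.4, 85.6 and 87.1 CPM with shCHAF1B-1 and 89.6, 89.7 and 88.0 CPM with shCHAF1B-2, against 119.0, 116.0 and 121.8 CPM in shGFP. Its libraries were very tight within groups, and it changed by -0.48 and -0.42 (SE 0.04 for each). BRIP1, a helicase bound to BRCA1 and also known as FANCJ, changed by -0.50 and -0.53.

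Of the genes that trim the broken ends, all 5 fell in the mean of both hairpins, with a median of -0.47. EXO1, the long-range exonuclease, measured 42.2, 41.6 and 41.4 CPM with shCHAF1B-1 and 46.1, 41.6 and 42.7 CPM with shCHAF1B-2, against 72.6, 68.0 and 72.4 CPM in shGFP. All knockdown libraries were far below shGFP (mean log2 fold change -0.74, SE 0.04, adjusted p = 8.60e-09). RBBP8, which encodes CtIP, the partner that starts resection with MRE11, changed by -0.53 and -0.48 (SE 0.05 for each). The nuclease MRE11 changed by -0.51 and -0.42, and its partner RAD50, an ATPase that tethers ends, by -0.38 and -0.31. NBN, the third subunit of that complex, changed least: 79.9, 86.6 and 83.1 CPM with shCHAF1B-1 and 90.4, 88.7 and 90.0 CPM with shCHAF1B-2, against 95.02, 94.6 and 104.9 CPM in shGFP. Its groups did not overlap, but with shCHAF1B-2 they lay close, and the change there of -0.13 (adjusted p = 0.0480) was not called by DESeq2 (adjusted p = 0.0742) or limma-voom (adjusted p = 0.0509), nor when shGFP replicate 3 was left out (-0.08, adjusted p = 0.213). With shCHAF1B-1 the change was -0.24 (adjusted p = 0.00144).

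Of the dissolvasome, which resolves paired molecules without exchange, the 3 members BLM, RMI1 and RMI2 all fell. Its subunit TOP3A is not among the 35 members. BLM had the largest change of the 35 members with shCHAF1B-1 and in the mean of both hairpins, while with shCHAF1B-2 RAD54B (-1.01) and XRCC2 (-0.92) changed more. BLM, the helicase mutated in Bloom syndrome (chromosome 15, 90717327 to 90816165, plus strand), measured 12.6, 12.2 and 13.4 CPM with shCHAF1B-1 and 16.3, 12.2 and 13.9 CPM with shCHAF1B-2, against 25.7, 25.6 and 27.2 CPM in shGFP. All knockdown libraries stood far below shGFP, with the least lowered at 16.3 CPM. The log2 fold change was -1.04 (SE 0.09, adjusted p = 5.13e-07) with shCHAF1B-1 and -0.89 (SE 0.09, adjusted p = 2.45e-06) with shCHAF1B-2. RMI2, an accessory subunit, changed least of the 3 genes, with 7.85, 6.44 and 7.02 CPM under shCHAF1B-1 and 8.19, 6.99 and 7.40 CPM under shCHAF1B-2, against 9.56, 9.71 and 9.05 CPM in shGFP. It fell in the mean of both hairpins (-0.37, SE 0.08, adjusted p = 0.00176). RMI1, the scaffold that holds BLM and TOP3A, changed by -0.51 and -0.39.

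The checkpoint kinases and their partners had the smallest median, -0.17 over 6 genes, and divided into 2 sizes. CHEK2, the kinase downstream of ATM, measured 11.2, 12.4 and 11.6 CPM with shCHAF1B-1 and 12.4, 12.2 and 14.7 CPM with shCHAF1B-2, against 19.6, 19.8 and 21.2 CPM in shGFP. It changed by -0.78 and -0.63 (SE 0.08 for each). ATRIP, which brings ATR to coated single strands, changed by -0.62 and -0.58 (SE 0.06 for each). The other 4 genes had mean log2 fold changes between -0.18 and -0.02. ATR measured 81.4, 85.8 and 88.6 CPM with shCHAF1B-1 and 88.6, 90.9 and 82.1 CPM with shCHAF1B-2, against 97.4, 96.4 and 99.6 CPM in shGFP. Its groups did not overlap, and the change was -0.20 (adjusted p = 0.00459) and -0.17 (adjusted p = 0.0142), the second not called without shCHAF1B-2 replicate 3 (-0.12, adjusted p = 0.0523). CHEK1, the target of ATR, measured 50.7, 54.4 and 54.6 CPM with shCHAF1B-1 and 56.5, 53.9 and 56.3 CPM with shCHAF1B-2, against 59.8, 59.1 and 61.9 CPM in shGFP. It fell with shCHAF1B-1 (-0.18, adjusted p = 0.00737), and with shCHAF1B-2 it changed by -0.12 (adjusted p = 0.0622), which was called with upper-quartile scaling (-0.15, adjusted p = 0.0225) and with library totals alone (-0.20, adjusted p = 0.00511).

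ATM and TOPBP1 passed under neither hairpin. ATM (chromosome 11, 108222484 to 108369102, plus strand) measured 67.3, 72.5 and 83.4 CPM with shCHAF1B-1 and 71.9, 90.2 and 68.3 CPM with shCHAF1B-2, against 88.0, 75.9 and 90.1 CPM in shGFP. The groups overlapped widely, and the change was -0.19 (adjusted p = 0.143) and -0.14 (adjusted p = 0.279). The mean of both hairpins, -0.16 (adjusted p = 0.132), passed when shCHAF1B-1 replicate 3 was left out (-0.21, adjusted p = 0.0480), when shCHAF1B-2 replicate 2 was (-0.23, adjusted p = 0.0174), or when libraries were scaled to their totals alone (-0.25, adjusted p = 0.0347). TOPBP1, the activator of ATR, measured 108.8, 116.8 and 113.9 CPM with shCHAF1B-1 and 114.0, 116.5 and 105.0 CPM with shCHAF1B-2, against 113.1, 112.9 and 116.3 CPM in shGFP. All 9 libraries lay together, and the 95% interval of the mean change ran from -0.11 to 0.07.

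**Figure D2:**
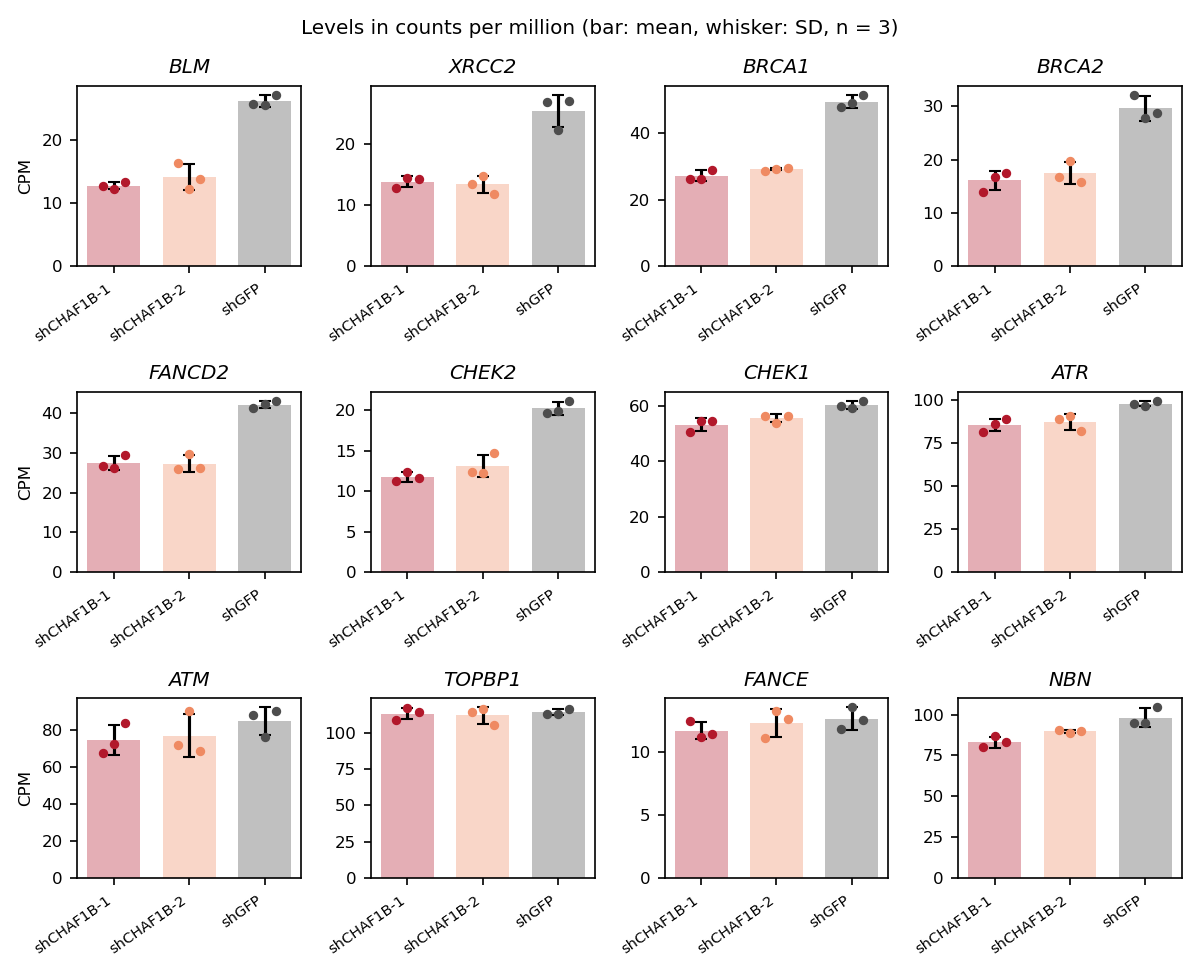
CPM of 12 of the genes on linear axes from 0, by group, with each library as a point, the mean as a bar and the SD as a whisker (n = 3). BLM, XRCC2, BRCA1, BRCA2, FANCD2 and CHEK2 show knockdown libraries well below shGFP, and the points of ATM, TOPBP1 and FANCE overlap between groups.

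The hairpins gave like values. No member differed between shCHAF1B-2 and shCHAF1B-1 by edgeR, DESeq2 or limma-voom, nor did any gene tested (0.0% by edgeR), and the lowest adjusted p among the members was 0.440. At an unadjusted p under 0.05, 2 members (RAD51AP1 and FANCM) and 1800 of all genes differed. The 95% interval of the difference lay within 0.5 on the log2 scale either way for 34 members. The exception was RAD54B, with bounds of -0.53 and 0.28. A bound of 0.5 exceeds the size of the members' median change, -0.46 in the mean of both hairpins, and is therefore wide. The change was less negative with shCHAF1B-2 for 24 members and more negative for 11, and the median difference, shCHAF1B-2 minus shCHAF1B-1, was 0.06.

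Across the members, how much a gene fell did not follow its abundance. Per kilobase of annotated exon, levels in shGFP ran from 26.0 CPM per kilobase for RBBP8 through 17.1 for EXO1, 15.9 for NBN, 15.6 for TOPBP1 and 15.3 for FANCI down to 0.549 for RAD54B. NBN, TOPBP1 and FANCI, neighbours in that order, differed by less than the SD of NBN (0.942). Spearman's rho between the shGFP level per kilobase and the mean log2 fold change was 0.06 over the 35 genes, which share the same 9 libraries. In the knockdowns EXO1 stood at 10.1 with shCHAF1B-1 and 10.5 with shCHAF1B-2, below NBN and TOPBP1, which it exceeded in shGFP. The library kit does not mark the strand, and for 6 members more than 10% of exon bases are shared with another gene of the table: RAD50 (AC116366.3), XRCC3 (KLC1), RAD54B (FSBP), RAD54L (LRRC41), FANCA (ZNF276) and FANCL (VRK2). Overlap was largest for RAD50, at 79.7% on the same strand, XRCC3, at 76.7% on the opposite strand, and RAD54B, at 59.1% on the same strand, so the levels of these genes are uncertain.

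Genes whose products share a complex, a step or a signal did not all move by the same amount. This shifted the ratios of partner transcripts inside single libraries. Not all pairs are subunits of a complex: CHEK2 over ATM, CHEK1 over ATR and ATR over TOPBP1 set a kinase beside its target or activator. RAD54L over RAD54B sets 2 related translocases side by side. The log2 ratio of counts was taken in each library for 18 partner pairs, chosen after the values had been seen and therefore described without a test. In 11 pairs the knockdown libraries did not overlap the shGFP libraries, 10 of them lower and 1 higher. That direction depends only on which gene of a pair was put first. How often the ratios of other gene pairs separate in this way was not examined. The largest shift was that of BLM over RMI2, with log2 ratios of 0.69, 0.92 and 0.93 with shCHAF1B-1 and 0.99, 0.81 and 0.90 with shCHAF1B-2, against 1.42, 1.40 and 1.58 in shGFP. BLM over RMI1 was -0.13, -0.33 and -0.10 with shCHAF1B-1 and -0.03, -0.30 and -0.17 with shCHAF1B-2, against 0.34, 0.31 and 0.37 in shGFP. In counts not scaled to length, BLM thus exceeded RMI1 in shGFP and lay below it in every knockdown library. Per kilobase of exon, BLM (3.92 CPM) already lay below RMI1 (5.88 CPM) in shGFP. CHEK2 over ATM shifted by -0.54, BRCA2 over PALB2 by -0.44, ATRIP over ATR by -0.42, BRCA1 over BARD1 by -0.35 and MRE11 over NBN by -0.28. FANCA over FANCG lay higher in every knockdown library, by 0.34 on average. The smaller shifts without overlap were FANCD2 over FANCI (-0.18), ATR over TOPBP1 (-0.16) and FANCF over FANCC (-0.15). The ratios of 7 pairs overlapped between the groups: BRCA1 over BRIP1, RAD51C over XRCC3, RAD54L over RAD54B, FANCB over FANCL, FANCC over FANCE, MRE11 over RAD50 and CHEK1 over ATR.

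**Figure D3:**
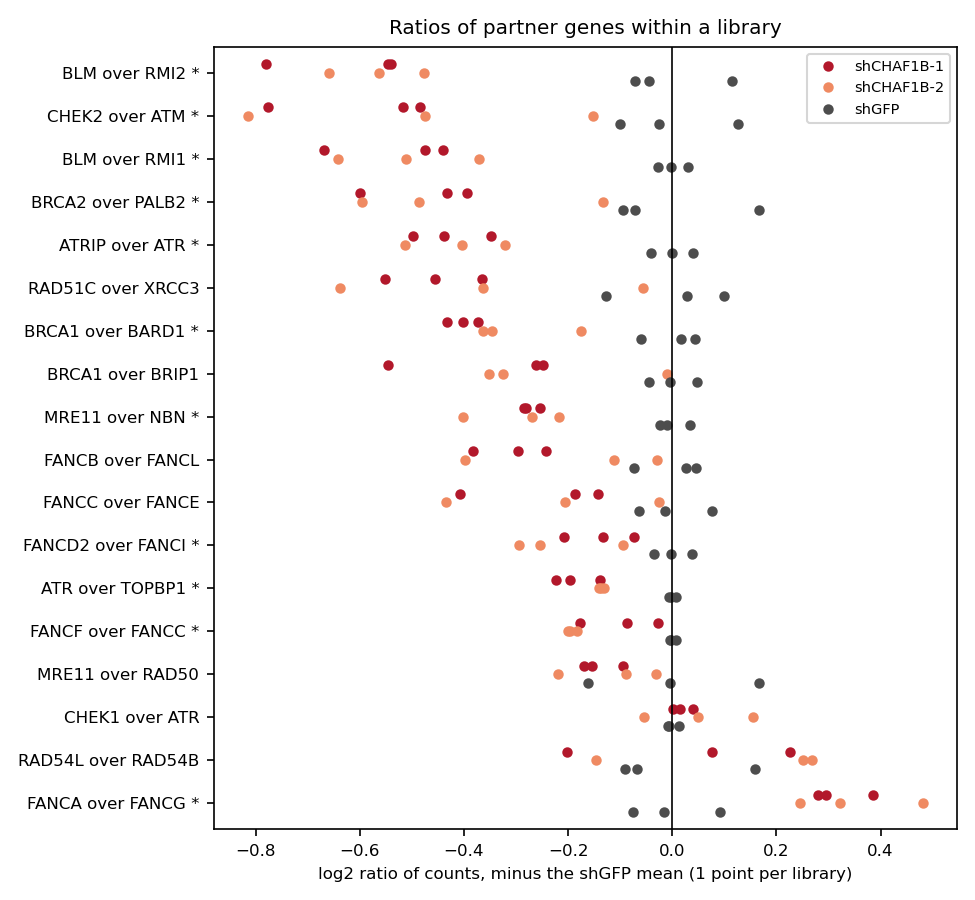
Log2 ratio of the counts of 2 partner genes in each library, less the mean of the shGFP libraries, for 18 pairs (1 point per library, shCHAF1B-1 red, shCHAF1B-2 orange, shGFP grey). Asterisks mark the 11 pairs whose knockdown and shGFP points do not overlap, from BLM over RMI2 at -0.59 to FANCA over FANCG at 0.34.

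The other genes of the pathways moved in both directions, and their counts stand beside 27.7% of all genes tested that fell and 29.2% that rose in the mean of both hairpins. Of 37 further homologous recombination genes tested, 25 fell and 2 rose in the mean of both hairpins, with a median log2 fold change of -0.28. EME1, a nuclease subunit (-1.06, SE 0.09), PARPBP, an inhibitor of recombination (-0.84, SE 0.06), MND1, a strand exchange cofactor (-0.83, SE 0.07), and RPA3, a subunit of the single-strand binding protein (-0.66, SE 0.05), were among the lowest adjusted p-values. The 2 that rose were SFR1 (0.29) and MUS81, the catalytic partner of EME1 (0.22). Of 20 further Fanconi genes 11 fell and 3 rose (median -0.26). DCLRE1B, a nuclease that processes crosslinks (-0.76), RAD18, a ubiquitin ligase (-0.44), and UBE2T, the E2 enzyme that serves FANCL (-0.44), fell, while ERCC1, the partner of the XPF nuclease, rose to 154.5, 146.8 and 145.02 CPM with shCHAF1B-1 and 137.4, 139.5 and 144.6 CPM with shCHAF1B-2, against 71.6, 79.5 and 76.9 CPM in shGFP, a log2 fold change of 0.93. WDR48, which activates the deubiquitinase USP1, and FAAP20 were the others that rose, by 0.33 each.

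Among checkpoint clamp and signalling genes 10 of 18 fell and 3 rose (median -0.18). TIMELESS (-0.56), RNF8 (-0.56) and TIPIN (-0.40) were lower, and TP53BP1, which protects ends from resection (0.39), RNF168 (0.18) and HUS1 (0.14) were higher. In non-homologous end joining, which rejoins ends without a template, 8 of 17 genes fell and 5 rose, and the share that rose was near that of all genes. Among those higher were POLM (0.72), LIG4, the ligase of the pathway (0.60), APLF (0.30) and SHLD2 (0.25), and lower were XRCC4 (-0.47) and APTX (-0.34). Mismatch repair had 5 of 7 lower and none higher, by edgeR (also at an unadjusted p under 0.05), DESeq2 and limma-voom, with MSH6 at -0.29 and PMS2 at -0.34. In nucleotide excision repair 7 of 18 fell (4 without shGFP replicate 2) and 2 rose (median -0.09), with DDB2 at -0.51 and GTF2H3 at -0.44 among those lower, and ERCC6 (0.33) and ERCC8 (0.19) higher. In base excision repair 10 of 17 fell and 2 rose (median -0.29), with NEIL3 at -0.58, APEX1 at -0.51 and LIG3 at -0.50 among those lower, and TDG (0.51) and POLB (0.38) higher.

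Cell cycle genes moved beside the members, and their counts again stand beside 27.7% of all genes tested that fell and 29.2% that rose. Of 40 S phase genes 39 fell, with a median of -0.61, led by MCM10 (-1.46), FEN1 (-1.24), ORC1 (-0.84) and RFC4 (-0.90), and PCNA did not pass. Of 35 genes of G2 and mitosis 34 fell, with a median of -0.49, led by CCNB2 (-1.11), BIRC5 (-0.95), ESPL1 (-1.07) and CDC20 (-0.83). Summed S phase transcripts ranged from 1941 to 1960 CPM in shCHAF1B-1 cells and from 1956 to 2061 CPM in shCHAF1B-2 cells, against 2849 to 2949 CPM in shGFP. In the mean of both hairpins 11 recombination and Fanconi genes lay below the median of the S phase genes and 15 below that of the G2 and mitosis genes. The part of the cell cycle in the members' change was not tested. Among 23 targets of p53, 15 fell (65.2%) and 5 rose (21.7%), and the share that rose was below the 29.2% of all genes. CCNG1 (-1.02), TP53I3 (-0.71) and BAX (-0.63) were lower. Higher were TP53INP1 (0.99), CDKN1A, the inhibitor of cyclin-dependent kinases (0.64), FAS (0.36), PLK3 (0.33) and TNFRSF10B (0.16).

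**Figure D4:**
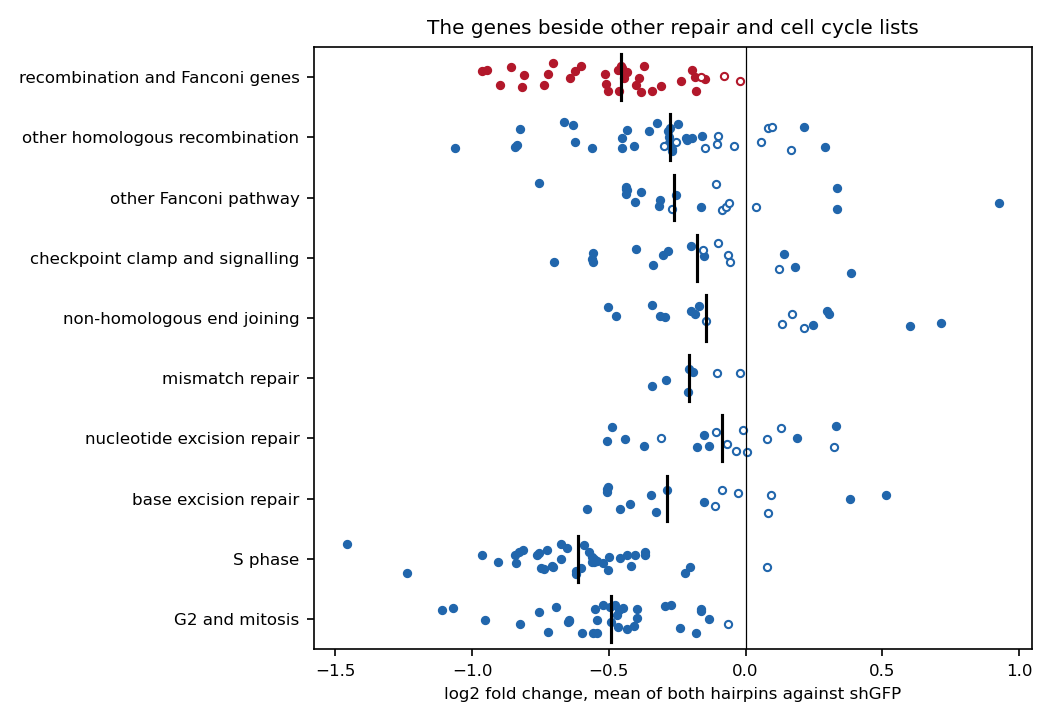
Mean log2 fold change of both hairpins against shGFP for the 35 recombination and Fanconi genes (red, top) and for 9 other lists of repair and cell cycle genes (blue). Each point is a gene, filled where the adjusted p is under 0.05, with a black bar at the median, which is -0.46 for the 35 genes, -0.61 for S phase genes and -0.09 for nucleotide excision repair genes.

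Many of these genes start close to the start of a gene on the other strand, and the neighbours are described here beside them. Starts on opposite strands and within 1000 bases of each other were found with a tested neighbour for 13 members in 14 pairs. That the genes of a pair point away from each other was not required. Of the neighbours 3 fell, 6 rose and 5 did not pass in the mean of both hairpins, beside 27.7% of all genes that fell and 29.2% that rose, and their median log2 fold change was 0.08, where that of their members was -0.46. For BRCA1 (-0.81), NBR1 (0.12, adjusted p = 0.00992), an autophagy receptor, starts 236 bases from the outermost annotated start of BRCA1, at 43170245. The BRCA1 window printed above lies elsewhere, at 43125365 to 43125614, so NBR1, counted among the 6 that rose, does not share it. NBR2 (-0.26, adjusted p = 0.122) starts 193 bases from a RefSeq start of BRCA1. RAD51C (-0.64) had the neighbour TEX14 (1.92), a gene of germ cell bridges, and RAD51AP1 (-0.51) had C12orf4 (0.40). XRCC3 (-0.24) had ZFYVE21 (0.37), FANCB (-0.43) had MOSPD2 (0.26) and PALB2 (-0.38) had DCTN5 (0.11). The 3 that fell were HSCB beside CHEK2 (-0.38 and -0.70), ANKRD49 beside MRE11 (-0.19 and -0.47) and HNRNPK beside RMI1 (-0.14 and -0.45). ATM and NPAT, a coactivator of histone genes, both missed the threshold, at -0.16 and -0.06. The exons of HSCB, ANKRD49 and NPAT overlap those of their members on the opposite strand, so some reads of these pairs cannot be told apart.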

How the data were processed

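Polyadenylated RNA of MCF10A cells was prepared with the TruSeq RNA kit version 2, per the labels' protocols. The deposited table holds unnormalized counts, integers for every gene in each library. STAR 2.5.3a, HTSeq 0.8.0, DESeq2 1.18.1, hg38 and mm10 are named in the submitters' processing notes, with no role or order. Of 26186 gene identifiers, 26149 matched GENCODE 29. Every column belonged to a labelled library, and within each group the counts of all library pairs differed by more than sampling noise. Total counts ran from 24339914 to 31819468 per library; 3 counts equal 0.0962 to 0.126 CPM.

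Genes were filtered with filterByExpr (minimum count 10, total 15, proportion 0.7), scaled with TMM and tested with the edgeR 4.0.16 quasi-likelihood test (R 4.3.3) with 1 model for the 9 libraries that held the group and no other term (biological coefficient of variation 6.24%). Contrasts were each hairpin and their mean against shGFP, and the difference of the hairpins. P-values were adjusted by Benjamini-Hochberg over all 16235 genes tested. Partner ratios used a pseudocount of 0.5. The steps were tested on simulated data. Alternatives were RLE and upper-quartile scaling, library totals alone, DESeq2 1.42.0, limma-voom (limma 3.58.1), no filter, a minimum of 1 CPM in 3 libraries, a fit to the compared groups alone, a block for the replicate number, stricter thresholds and each library left out.

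The members and lists were chosen with earlier results of these data known. Values in every library are given for members that passed under neither hairpin, the largest and smallest change in each role group, BRCA1, BRCA2, FANCD2, FANCI, ATM, ATR, CHEK1 and CHEK2, and of other lists up to 4 genes with the smallest adjusted p are named, plus those moving against their list where 5 or fewer. The genes of the 1.5-fold and unadjusted counts were named after their values were seen, as were the partner pairs and the use of RefSeq starts for neighbours. Some genes that this rule names are not reported here.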

Additional observations from a re-analysis of the deposited data

How the results depend on the processing

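No member reversed its direction under any alternative where it was called. Requiring a 1.5-fold change left 13 members lower with shCHAF1B-1, 11 with shCHAF1B-2 and 12 in the mean of both hairpins. In the mean, 7.74% of all genes were lower under that requirement. Under the same requirement 7 other homologous recombination genes, 1 other Fanconi gene, 1 checkpoint gene, 22 S phase genes and 11 G2 and mitosis genes were lower in the mean, and 0 of the end joining, mismatch repair, nucleotide excision and base excision genes. At an adjusted p under 0.01 the members lower were 30, 24 and 30, and the share of all genes at that threshold is not given here. Nucleotide excision genes lower numbered 11 with library totals alone and 4 without shGFP replicate 2; the cause was not tested. Library totals alone moved the median of all genes to -0.10 in the mean of both hairpins. The split of all calls there was 3841 higher and 5715 lower, where TMM gave 4733 and 4498. With library totals alone 33, 32 and 33 members were lower, beside 5288, 5104 and 5715 of the 16235 genes. Relative to that shift in the median of all genes, the members' median of -0.54 remained negative. DESeq2 called 31, 27 and 32 members lower, beside 3652, 3490 and 4036 of the 16235 genes. With limma-voom 31, 29 and 32 members were lower, beside 4109, 3986 and 4554 genes.

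With each library left out in turn, members lower numbered 30 to 33 with shCHAF1B-1, 25 to 29 with shCHAF1B-2 and 31 to 33 in the mean. Of the 16486 to 16630 genes tested in those fits, 3520 to 4293, 3469 to 4053 and 3970 to 4577 were lower. The same ranges were 23 to 27 for other homologous recombination genes, 10 to 11 for other Fanconi genes, 9 to 10 for checkpoint genes, 6 to 9 for end joining, 4 to 6 for mismatch repair, 4 to 8 for nucleotide excision, 9 to 11 for base excision, 38 to 39 for S phase and 33 to 34 for G2 and mitosis. CHAF1B stayed between -3.65 and -3.36 with shCHAF1B-1 and between -3.71 and -3.44 with shCHAF1B-2.

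The replicate numbers showed no sign of pairing the libraries, though this does not exclude pairing. Deviations of same-numbered libraries correlated between -0.14 and 0.10, and those of differently numbered libraries between -0.22 and 0.22. With the replicate number as a block 31, 29 and 32 members were lower, beside 3927, 3799 and 4314 of the 16235 genes. NBN with shCHAF1B-2 was the only member call lost (adjusted p = 0.0671). Beside the settings named in the report for ATM, ATR, CHEK1, FANCL, NBN and XRCC3, calls with shCHAF1B-2 were lost for FANCB by DESeq2 (adjusted p = 0.0503), without shCHAF1B-2 replicate 3 (adjusted p = 0.0852) and without shGFP replicate 3 (adjusted p = 0.0648). They were also lost for RAD50 without shCHAF1B-2 replicate 3 (adjusted p = 0.0634) or shGFP replicate 2 (adjusted p = 0.0746), and for RMI2 without shCHAF1B-2 replicate 2 (adjusted p = 0.0584). XRCC3 with shCHAF1B-2 and FANCL with shCHAF1B-1 lost their calls in several settings, among them DESeq2 for XRCC3 (adjusted p = 0.0739) and the fit without shCHAF1B-1 replicate 1 for FANCL (adjusted p = 0.0939).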
